A study of Homo sapiens with 48 samples.

Results

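The ATF4 and unfolded protein stress program was followed through 35 genes, of the 20241 genes in the deposited table, in PSN1 cells with acquired resistance to Talazoparib. The members were chosen by name: ATF4, its transcription factor partners and known targets in amino acid supply, the kinases and a phosphatase subunit that act on eIF2, and genes of the endoplasmic reticulum (ER) stress response. The rule used no measured value. PSN1 is a human pancreatic cancer cell line, and Talazoparib is an inhibitor of PARP, the enzyme that adds poly(ADP-ribose) chains at DNA breaks. RNAseq was examined in 9 libraries from 3 groups, with 3 replicates each: parental cells without drug, TalaR-M cells that were maintained in 50 nM Talazoparib for 4 months by their labels, and TalaR-DF cells, which are resistant cells moved to drug free media. All groups were grown in RPMI1640 with fetal bovine serum, and the labels name no edited gene. The labels of TalaR-DF and of parental cells give no treatment and Day 0, while the study's text gives 4 weeks of drug withdrawal for TalaR-DF. Resistant cells came from selection in rising drug concentrations, and the sources used here do not say whether they were a single clone. Nothing in the labels says that replicates were separate cultures, so the p-values below measure only the spread between these libraries.

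ATF4 is the transcription factor of the integrated stress response. When PERK (EIF2AK3) senses unfolded protein in the ER or GCN2 (EIF2AK4) senses a shortage of amino acids, the kinase phosphorylates eIF2, which slows most translation but raises translation of the ATF4 mRNA, so ATF4 protein does not have to follow its mRNA. ATF4 then activates genes for amino acid synthesis, import and tRNA charging, and with DDIT3 (CHOP) it can turn the response toward cell death, while IRE1 (ERN1) splices XBP1 mRNA and ATF6 induces ER chaperones such as HSPA5 (BiP). Gene-level values of mRNA hold neither the phosphorylation of eIF2, nor ATF4 protein, nor XBP1 splicing.

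Promoter sequences are shown for ATF3, ASNS and HSPA5, whose mRNA differed between groups as described below and which hold a known ATF4 or ER stress motif. HERPUD1, an ER stress gene with both kinds of motif, was added after its values had been seen. Each line gives the 250 bases before the RefSeq start of transcription on GRCh38.p14, written 5′ to 3′ along the gene, with the motif in capitals. Motifs were searched on both strands. The ATF4 composite site was searched as TGATGNAAN. The ER stress element was searched as CCAAT and CCACG with 9 free bases between them, ER stress element II as ATTGG and CCACG with 1 free base between them, and the unfolded protein response element as TGACGTGG. The ER stress elements share CCACG but did not overlap in these promoters.
ATF3, chr1:212565157-212565406, plus strand: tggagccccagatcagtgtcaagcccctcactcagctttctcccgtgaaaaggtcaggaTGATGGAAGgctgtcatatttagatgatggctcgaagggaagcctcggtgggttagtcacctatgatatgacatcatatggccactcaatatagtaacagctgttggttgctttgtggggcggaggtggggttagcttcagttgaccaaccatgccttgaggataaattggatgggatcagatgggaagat
ASNS, chr7:97872409-97872658, minus strand: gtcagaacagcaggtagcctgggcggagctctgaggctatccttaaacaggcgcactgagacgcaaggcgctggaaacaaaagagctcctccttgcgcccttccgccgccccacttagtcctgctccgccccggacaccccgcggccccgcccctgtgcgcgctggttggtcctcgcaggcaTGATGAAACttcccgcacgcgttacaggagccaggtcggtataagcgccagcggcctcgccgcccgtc
HSPA5, chr9:125241344-125241593, minus strand: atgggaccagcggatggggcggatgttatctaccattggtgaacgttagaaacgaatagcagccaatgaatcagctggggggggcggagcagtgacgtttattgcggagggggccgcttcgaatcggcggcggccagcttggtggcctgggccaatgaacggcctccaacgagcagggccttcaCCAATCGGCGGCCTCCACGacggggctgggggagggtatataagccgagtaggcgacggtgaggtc
HERPUD1, chr16:56931892-56932141, plus strand: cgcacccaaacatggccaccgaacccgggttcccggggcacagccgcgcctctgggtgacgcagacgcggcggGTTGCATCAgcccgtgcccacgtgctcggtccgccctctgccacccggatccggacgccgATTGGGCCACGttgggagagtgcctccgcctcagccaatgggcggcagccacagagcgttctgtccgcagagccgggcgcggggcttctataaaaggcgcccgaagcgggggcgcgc
The composite site of ATF3 lay from base -191 to -183 and that of ASNS from -68 to -60, counted from the start. The ER stress element of HSPA5 lay from -66 to -48. HERPUD1 held a composite site on the minus strand from -177 to -169, where the capitals show its reverse complement, and ER stress element II from -117 to -107. RefSeq windows were matched for 32 of the 35 members. Of these, 7 held the ATF4 composite site, which were AARS, ASNS, ATF3, CEBPG, CHAC1, HERPUD1 and SLC1A5, whereas 3.13% of all 35116 promoter windows of the same length held it. For each motif a member was counted if any of its windows held it, but the share is of single windows, so these are unlike measures. Members were also chosen in part as known ATF4 targets. The windows of CEBPG, CHAC1 and SLC1A5 with the composite site lay wholly inside the annotated genes. HSPA5 and XBP1 held the ER stress element, found in 0.0740% of all windows, HERPUD1 was the sole member with ER stress element II, found in 0.0513%, and no member held the unfolded protein response element, found in 0.612%. Of the 7 members with a composite site, AARS, ASNS and ATF3 were called as higher in TalaR-M against parental cells. Of all genes, 10.3% were. CEBPG, HERPUD1 and SLC1A5 were not called in that comparison. In TalaR-DF against parental cells AARS, ASNS, HERPUD1 and SLC1A5 were called as higher, as were 34.2% of all genes. ATF3 and CEBPG were not called there. CHAC1 was called as higher in both, but it was at 0 in all parental libraries, so its tests are not read. These matches describe letters in the window and do not show binding.

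The values below are the authors' log2 CPM, that is reads of a gene scaled to the size of its library, on a log2 scale, with every value under 0 set to 0, so a gene at 0 had at most about 1 CPM. The libraries held 8387755 to 14973847 reads on genes above that limit, and 1 CPM stood for 6.97 to 14.54 reads. A gene was called at a Benjamini-Hochberg adjusted p under 0.05 in limma over all genes tested, and every adjusted p below is from this test. Of the 35 members, 33 passed the filter of more than 1 CPM in at least 3 libraries. XBP1 and STC2 were listed at 0 in all 9 libraries and were not tested. POLR2F and MRPS24, a polymerase subunit and a mitochondrial ribosome protein that every cell uses, were also listed at 0 throughout (both were looked up after the values were seen), so no level can be read for XBP1, the target of IRE1, or for STC2, a secreted stress protein. The keratins and EPCAM that define epithelial cells were present: all 5 markers were above the limit in each group and summed to 1078 to 1132 CPM in parental, 1701, 1847 and 5773 in TalaR-M (the last in replicate 2) and 949 to 1085 in TalaR-DF cells. Fibroblast markers summed to 424 to 441 CPM in parental, 290 to 424 in TalaR-M and 44.9 to 49.3 in TalaR-DF cells, with 4 of 5 above the limit in each group but not the same 4. In TalaR-M, COL1A2 was at 0 in all libraries, against 7.85 to 7.88 log2 CPM in parental cells, and DCN, at 0 in the other groups, stood at 1.45 to 1.73. COL1A1 was higher in TalaR-M (8.13 to 8.67) than in parental cells (6.45 to 6.55), whereas LUM and PDGFRB were lower. Endothelial markers summed to 28.8 to 30.9, 5.91 to 9.06 and 2.92 to 3.24 CPM in the same order, with VWF at 0 in all. Leukocyte markers summed to at most 14.7 CPM, with CD3E, CD68 and LYZ at 0 in all libraries, and all 4 erythroid markers were at 0. The part of these markers in the results below was not tested. In bulk RNA, fewer cells of a type and less RNA per cell cannot be told apart.

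TalaR-M replicate 2 stood apart from the other libraries, so TalaR-M results are also given without it for many of the genes. In this library, 13 of the 33 members tested were over 2-fold away from the average of replicates 1 and 3, as were 5431 of all 12471 genes tested, whereas no member of any parental or TalaR-DF library lay that far from the other libraries of its group. Its members deviated by -2.50 log2 units for EIF2AK3 to 2.18 for NUPR1. Long transcripts were low and short transcripts high: Spearman's correlation of the deviation with transcript length was -0.62 over the 12383 genes with a length and -0.51 over the members, which share this 1 library. The median deviation was 1.33 log2 units over the genes with the shortest transcripts (up to 1348 bases) and -1.36 over those with the longest (from 7764 bases). This library also had the fewest reads, 8387755 against 12213605 or more in the others.

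**Figure D1:**
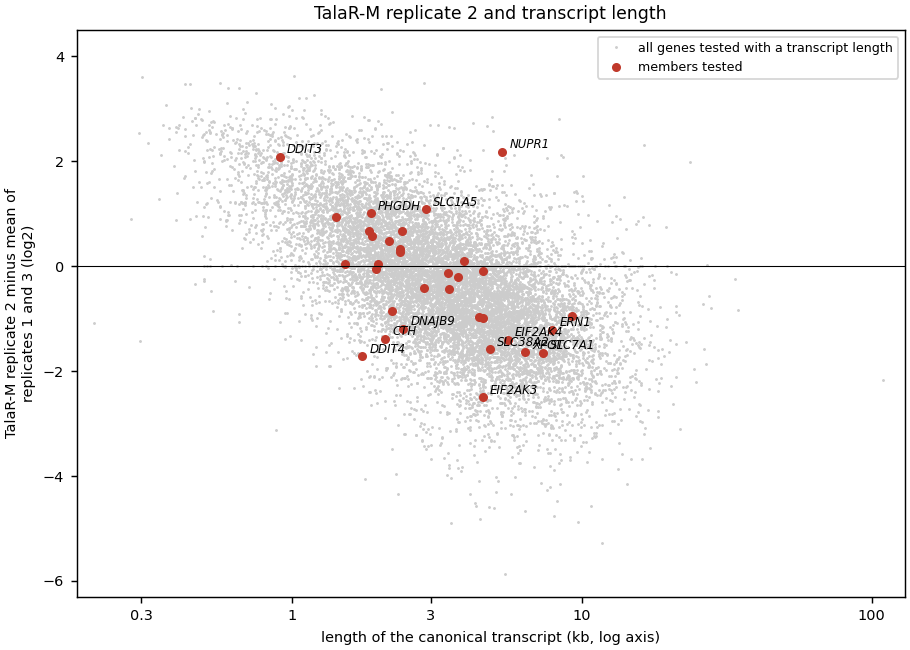
Deviation of TalaR-M replicate 2 from the mean of replicates 1 and 3 (log2) against the length of the canonical transcript (kb, log axis), for all 12383 genes with a length (grey) and the 33 members tested (red, named beyond 2-fold). The cloud falls from left to right, and members lie from -2.50 for EIF2AK3 to 2.18 for NUPR1.

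In TalaR-M against parental cells, 15 of the 33 members tested were called, 9 of them higher and 6 lower. Over all genes tested, 23.6% were called, 10.3% as higher and 13.2% as lower. The members called as higher were ATF3, CHAC1, VLDLR, ASNS, PSPH, SLC3A2, SLC1A4, AARS and HSPA5, and those called as lower were CEBPB, TRIB3, DDIT4, SHMT2, SLC38A2 and PPP1R15A. CHAC1 is in these counts, but it was at 0 in all parental libraries, so its test is not read. A change of at least 2-fold as well was seen for 5 members (ATF3, SLC1A4, DDIT4, SHMT2 and SLC38A2), against 13.3% of all genes. The median log2 difference was -0.11 over the members and -0.09 over all genes. Without TalaR-M replicate 2, 26 members were called, 14 higher and 12 lower, while the share of all genes called was 60.2%, with 30.2% higher and 30.0% lower. All 15 members called from the 9 libraries kept their call and direction without it.

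In TalaR-DF against parental cells, fitted on those 6 libraries alone, 26 members were called, 13 higher and 13 lower, where 66.3% of all genes were called, 34.2% higher and 32.0% lower. Of the 7 synthesis genes 4 rose and 1 fell, and of the 8 genes of transport and tRNA charging 5 rose and 3 fell. Of the 7 regulators 0 rose and 4 fell, and of the 4 effectors tested 1 rose and 3 fell. The regulators that fell include NUPR1, at 0 in all TalaR-DF libraries. The effector that rose was CHAC1, at 0 in all parental libraries. Neither of these tests is read below. With all 9 libraries in 1 model, 13 members were called, 7 higher and 6 lower. The share of all genes called in that model is not given here, so this drop cannot be set against theirs. At 2-fold, ASNS, SLC3A2 and SLC7A5 were higher and CEBPB, DDIT3, DDIT4, SLC1A4 and VLDLR lower, that is 8 members, against 11.6% of all genes. The median was -0.09 over the members and 0.02 over all genes. TalaR-M and TalaR-DF were both set against the same 3 parental libraries.

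**Figure D2:**
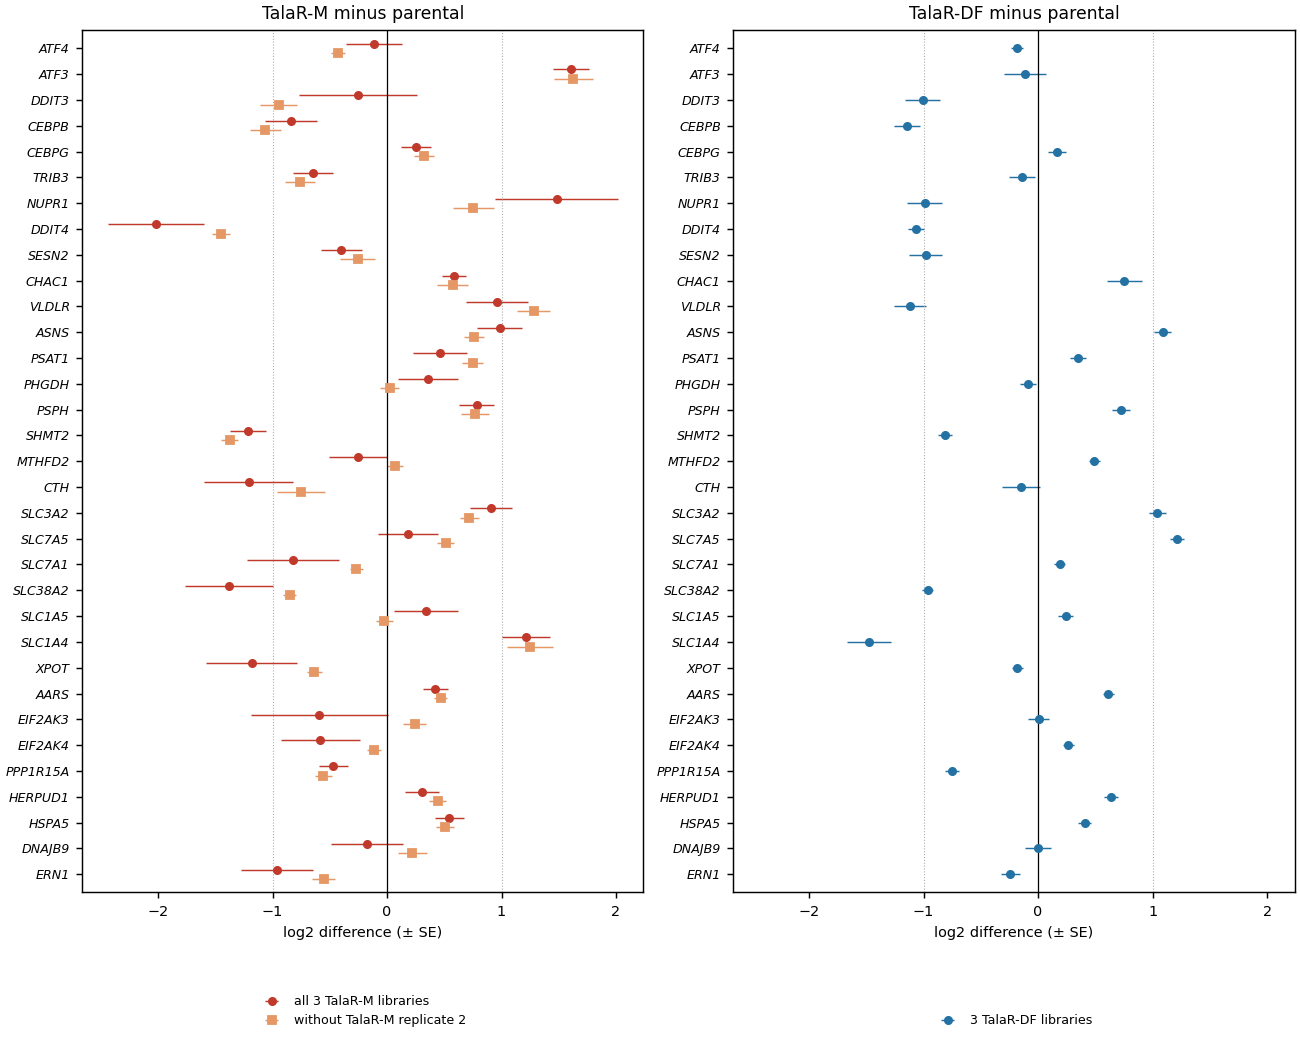
Log2 difference (± SE) of each of the 33 members tested, for TalaR-M minus parental with and without TalaR-M replicate 2 (left) and TalaR-DF minus parental (right); dotted lines mark 2-fold. ATF3 lies at 1.61 on the left and -0.12 on the right, SLC1A4 at 1.22 and -1.48, and ASNS at 0.98 and 1.09.

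Comparing the resistant cells with and without drug, 5 members were called, against 12.0% of all genes. ATF3, NUPR1, VLDLR and SLC1A4 were higher in TalaR-M than in TalaR-DF cells, where 7.79% of all genes were higher, and SLC7A5 was lower, where 4.25% of all genes were lower. All 5 passed 2-fold, as did 6.93% of all genes. The median was -0.13 over the members and -0.09 over all genes. Without TalaR-M replicate 2, 22 members were called, 7 higher and 15 lower, with 48.8% of all genes called, 23.5% higher and 25.3% lower. The 7 higher members were ATF3, NUPR1, PPP1R15A, PSAT1, SESN2, SLC1A4 and VLDLR. The 15 lower members included ASNS, SLC3A2, SLC7A5, SHMT2, MTHFD2 and XPOT from amino acid supply, with differences of at most 0.70 log2 units. The other lower members were ATF4, CTH, DDIT4, EIF2AK4, ERN1, HERPUD1, SLC1A5, SLC7A1 and TRIB3.

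**Figure D3:**
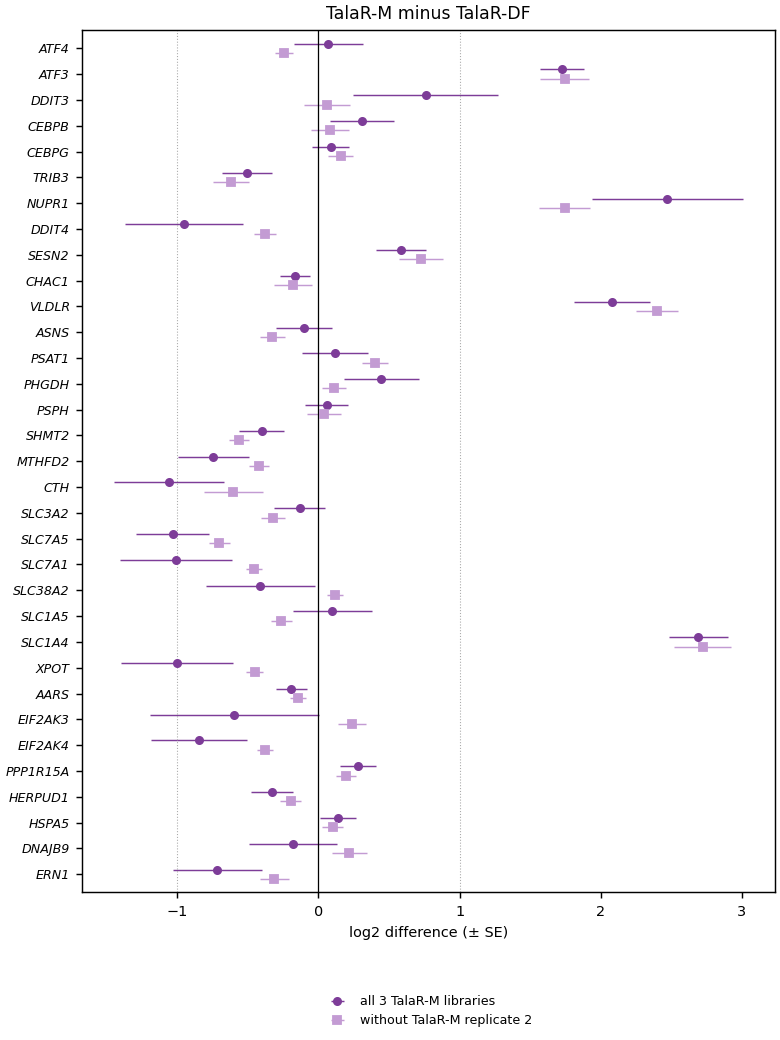
Log2 difference (± SE) between TalaR-M and TalaR-DF cells for each of the 33 members tested, with all 3 TalaR-M libraries (circles) and without replicate 2 (squares); dotted lines mark 2-fold. SLC1A4, VLDLR, NUPR1 and ATF3 lie right of the 2-fold line with and without replicate 2, at 2.69, 2.08, 2.47 and 1.73 with all libraries.

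Among the regulators, ATF4 mRNA itself showed small differences. It measured 8.18, 8.16 and 8.11 log2 CPM in parental, 7.77, 8.67 and 7.68 in TalaR-M and 8.04, 7.89 and 7.99 in TalaR-DF cells. TalaR-M replicate 2 was the highest of all 9 libraries and the other TalaR-M libraries the lowest, so TalaR-M overlapped both other groups, whereas all TalaR-DF values lay under all parental ones. The difference from parental cells was -0.11 ± 0.25 (SE) in TalaR-M (adjusted p = 0.75) and fell to -0.43 ± 0.06 without replicate 2 (adjusted p = 0.00013). In TalaR-DF cells it was -0.18 ± 0.05 (adjusted p = 0.0097). TalaR-M and TalaR-DF differed by 0.07 with all libraries (adjusted p = 0.86) and by -0.25 without replicate 2 (adjusted p = 0.0079). The annotation has 4 ATF4 pseudogenes that could share reads.

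ATF3, a stress-induced repressor and activator downstream of ATF4, was the sole regulator called higher in TalaR-M than parental cells. Its levels were 0.38, 0 and 0.36 log2 CPM in parental, 1.89, 1.82 and 1.86 in TalaR-M and 0, 0.39 and 0 in TalaR-DF cells. All TalaR-M libraries lay above all others, replicate 2 included, and parental and TalaR-DF values overlapped. The rise was 3.05-fold over parental cells (log2 1.61 ± 0.16, adjusted p = 0.00018) and 3.31-fold over TalaR-DF cells (log2 1.73 ± 0.16, adjusted p = 0.00032). These are low levels, from 26 to 57 reads in the TalaR-M libraries, and since some values in the other groups were at the lower limit both folds take that limit as the level of those libraries. ATF3 in TalaR-DF differed from parental cells by -0.12 ± 0.18 (adjusted p = 0.59).

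DDIT3, which encodes CHOP, was lower in TalaR-DF than in parental cells. It measured 2.80, 2.79 and 2.69 log2 CPM in parental, 1.94, 3.90 and 1.68 in TalaR-M and 1.66, 1.54 and 2.04 in TalaR-DF cells. Only TalaR-M replicate 2 rose above the parental range, and the other TalaR-M libraries lay with TalaR-DF. TalaR-DF was 2.01-fold lower than parental (log2 -1.01 ± 0.15, adjusted p = 9.5e-05). The TalaR-M difference of -0.25 ± 0.52 was not called (adjusted p = 0.73), and it was -0.95 ± 0.16 without replicate 2 (adjusted p = 0.00039). TalaR-M and TalaR-DF differed by 0.76 ± 0.52 (adjusted p = 0.32), and by 0.06 ± 0.16 without replicate 2 (adjusted p = 0.79). Exons of MARS1 and another gene cover 35.9% of the canonical DDIT3 transcript in the annotation, so its reads may be shared. MARS1 lies on the opposite strand but the other gene on the same strand, so counting by strand would not separate all of them.

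CEBPB, a partner of ATF4 on composite sites, fell in both resistant groups. Levels were 7.06, 7.06 and 7.27 log2 CPM in parental, 6.16, 6.74 and 5.97 in TalaR-M and 6.27, 5.96 and 5.71 in TalaR-DF cells. Neither resistant group overlapped parental cells, and they overlapped each other. The fall was -1.15 ± 0.12 in TalaR-DF (adjusted p = 4.6e-06) and -0.84 ± 0.23 in TalaR-M (adjusted p = 0.032), the second of which lost its call when any library other than TalaR-M replicate 2 was left out, with differences of -0.68 to -0.87 (highest adjusted p = 0.12).

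NUPR1, a small stress-induced chromatin protein, was listed at 0 in all TalaR-DF libraries. It measured 0.83, 1.06 and 1.08 log2 CPM in parental cells and 2.05, 3.93 and 1.44 in TalaR-M cells. Both of these groups lay above TalaR-DF, and TalaR-M above parental. TalaR-M exceeded TalaR-DF by a log2 difference of 2.47 ± 0.54 (adjusted p = 0.022), and by 1.74 ± 0.18 without replicate 2 (adjusted p = 1.3e-05). These differences take the limit of about 1 CPM as the TalaR-DF level. The TalaR-DF spread of 0 is also set by that limit, so their adjusted p does not rest on a measured TalaR-DF spread. In the comparison of TalaR-DF with parental cells NUPR1 passed the filter only through the parental libraries, so that test is not read here, although it is among the members counted as lower above. The difference between TalaR-M and parental was 1.48 ± 0.54 (adjusted p = 0.082), and 0.75 ± 0.18 without replicate 2 (adjusted p = 0.0036). The call between TalaR-M and TalaR-DF was lost when any TalaR-DF library was left out (highest adjusted p = 0.081).

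The other regulators were CEBPG, a further ATF4 partner, and TRIB3, a pseudokinase that restrains ATF4 and DDIT3. CEBPG ranged from 4.76 to 5.19 log2 CPM over all libraries and was called in none of the 3 comparisons from all their libraries, but without TalaR-M replicate 2 it was called as higher in TalaR-M against parental cells, by 0.32 ± 0.09 (adjusted p = 0.0075). TRIB3 ranged from 5.82 to 5.91 in parental, 5.04 to 5.45 in TalaR-M and 5.49 to 6.04 in TalaR-DF cells. It was lower in TalaR-M than in parental cells by -0.65 ± 0.18 (adjusted p = 0.032), a call that was lost without any library other than TalaR-M replicate 2 (highest adjusted p = 0.11).

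Of the stress effectors, DDIT4, the brake on mTORC1 also known as REDD1, showed the largest fall among the called members. It measured 7.31, 7.29 and 7.34 log2 CPM in parental, 5.84, 4.15 and 5.89 in TalaR-M and 6.34, 6.32 and 6.08 in TalaR-DF cells. The 3 groups did not overlap, with TalaR-M lowest. The fall was 4.06-fold in TalaR-M (log2 -2.02 ± 0.42, adjusted p = 0.0096), 2.73-fold without replicate 2 (log2 -1.45 ± 0.08, adjusted p = 2.8e-08) and 2.10-fold in TalaR-DF (log2 -1.07 ± 0.07, adjusted p = 1.1e-07). Between TalaR-M and TalaR-DF the difference was -0.95 ± 0.42 (adjusted p = 0.17), and -0.38 ± 0.08 without replicate 2 (adjusted p = 0.0020).

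VLDLR, a lipoprotein receptor induced by ATF4, moved in opposite directions in the resistant groups. Levels were 2.48, 2.61 and 2.34 log2 CPM in parental, 3.90, 2.80 and 3.61 in TalaR-M and 1.23, 1.39 and 1.46 in TalaR-DF cells. The groups did not overlap, with TalaR-M highest and TalaR-DF lowest. TalaR-M exceeded TalaR-DF 4.23-fold (log2 2.08 ± 0.27, adjusted p = 0.0019). TalaR-DF was lower than parental by -1.12 ± 0.14 (adjusted p = 2.3e-05), and TalaR-M higher by 0.96 ± 0.27 (adjusted p = 0.034), or by 1.28 ± 0.15 without replicate 2 (adjusted p = 1.5e-05). The rise over parental cells was not called when any library other than TalaR-M replicate 2 was left out, with differences of 0.73 to 1.03 (highest adjusted p = 0.12).

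CHAC1, which degrades glutathione, was at 0 in all parental libraries, and ranged from 0.56 to 0.62 log2 CPM in TalaR-M and from 0.61 to 0.86 in TalaR-DF cells. The resistant groups did not overlap parental cells and overlapped each other. CHAC1 passed the filter only through the resistant groups, and its parental spread is set by the limit, so its test is not read here, although it is among the members counted as higher above. SESN2, a leucine sensor that restrains mTORC1, ranged from 2.27 to 2.65 in parental, 1.76 to 2.33 in TalaR-M and 1.42 to 1.54 in TalaR-DF cells. It fell in TalaR-DF by -0.98 ± 0.14 (adjusted p = 7.7e-05), and the TalaR-M difference of -0.40 ± 0.18 was not called (adjusted p = 0.14).

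Amino acid synthesis genes did not move one way. In TalaR-M, ASNS and PSPH rose, SHMT2 fell, and PSAT1, PHGDH, MTHFD2 and CTH were not called. In TalaR-DF, ASNS, PSAT1, PSPH and MTHFD2 rose, SHMT2 fell, and PHGDH and CTH were not called.

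ASNS, the enzyme that makes asparagine and a classic ATF4 target, measured 4.25, 4.23 and 4.26 log2 CPM in parental, 5.11, 5.67 and 4.90 in TalaR-M and 5.41, 5.30 and 5.29 in TalaR-DF cells. Every library of resistant cells lay above the parental ones, and the resistant groups overlapped. The rise was 1.98-fold in TalaR-M (log2 0.98 ± 0.20, adjusted p = 0.0085), 1.69-fold without replicate 2 (log2 0.76 ± 0.09, adjusted p = 1.8e-05) and 2.13-fold in TalaR-DF (log2 1.09 ± 0.07, adjusted p = 1.6e-07). TalaR-M and TalaR-DF differed by -0.10 ± 0.20 (adjusted p = 0.72), and by -0.33 ± 0.09 without replicate 2 (adjusted p = 0.0098). A readthrough locus in the annotation covers 99.5% of the ASNS transcript, and 4 pseudogenes exist, so its reads could have been split in counting.

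SHMT2, the mitochondrial serine hydroxymethyltransferase, moved the other way. Levels were 8.27, 8.20 and 8.23 log2 CPM in parental, 6.92, 7.34 and 6.80 in TalaR-M and 7.55, 7.35 and 7.36 in TalaR-DF cells. The groups did not overlap, with TalaR-M replicate 2 just under the lowest TalaR-DF library. The fall was 2.32-fold in TalaR-M (log2 -1.21 ± 0.16, adjusted p = 0.00096) and 1.76-fold in TalaR-DF (log2 -0.81 ± 0.06, adjusted p = 3.4e-07). Between the resistant groups it was -0.40 ± 0.16 (adjusted p = 0.14), and -0.56 ± 0.07 without replicate 2 (adjusted p = 6.7e-05).

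The serine pathway enzymes PHGDH, PSAT1 and PSPH act in that order. PSPH ranged from 5.07 to 5.25 log2 CPM in parental, 5.70 to 6.14 in TalaR-M and 5.72 to 5.96 in TalaR-DF cells, and rose by 0.78 ± 0.15 (adjusted p = 0.0071) and 0.73 ± 0.08 (adjusted p = 8.2e-06). PSAT1 rose in TalaR-DF by 0.35 ± 0.07 (adjusted p = 0.00095), with 0.47 ± 0.24 in TalaR-M (adjusted p = 0.18), where replicate 2 stood at 5.13 log2 CPM and the other libraries at 6.12 and 5.85. Without replicate 2 the TalaR-M difference was 0.75 ± 0.09 and was called (adjusted p = 2.6e-05). PHGDH differed by -0.09 in TalaR-DF (adjusted p = 0.28) and 0.36 in TalaR-M (adjusted p = 0.34), where replicate 2 stood at 7.92 and the other libraries at 7.0 and 6.82. Its TalaR-M difference was 0.02 without replicate 2 (adjusted p = 0.84). MTHFD2, which works in mitochondrial folate metabolism, rose by 0.49 ± 0.05 in TalaR-DF (adjusted p = 5.1e-06), with -0.25 ± 0.25 in TalaR-M (adjusted p = 0.48). The TalaR-M difference was 0.07 without replicate 2 (adjusted p = 0.40). MTHFD2 has 7 annotated pseudogenes, and exons of genes on the opposite strand cover 36.8% of its canonical transcript. CTH, which makes cysteine, differed from parental cells by -1.21 ± 0.39 in TalaR-M (adjusted p = 0.056), with replicate 2 at 0.62 log2 CPM and the other libraries at 2.28 and 1.71. Without replicate 2 it was called lower, by -0.75 ± 0.21 (adjusted p = 0.0093).

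In amino acid transport, SLC3A2 and SLC7A5 form the heavy and light chains of the LAT1 exchanger, which imports leucine and other large neutral amino acids. SLC3A2 measured 6.62, 6.52 and 6.55 log2 CPM in parental, 7.32, 7.85 and 7.24 in TalaR-M and 7.77, 7.58 and 7.45 in TalaR-DF cells. SLC7A5 measured 7.95, 7.83 and 7.91 in parental, 8.47, 7.42 and 8.35 in TalaR-M and 9.24, 9.07 and 9.03 in TalaR-DF cells. For SLC3A2 every library of resistant cells lay above the parental ones, whereas for SLC7A5 TalaR-M replicate 2 lay below the parental libraries and TalaR-DF was highest without overlap. Both chains rose in TalaR-DF, SLC3A2 by 1.04 ± 0.07 (adjusted p = 2.3e-07) and SLC7A5 by 1.22 ± 0.06 (adjusted p = 1.9e-08). In TalaR-M, SLC3A2 rose by 0.91 ± 0.18 (adjusted p = 0.0078), and SLC7A5 differed by 0.18 ± 0.26 (adjusted p = 0.62), or 0.51 ± 0.08 without replicate 2 (adjusted p = 0.00012). SLC7A5 was lower in TalaR-M than in TalaR-DF by -1.03 ± 0.26 (adjusted p = 0.038), and by -0.70 ± 0.08 without replicate 2 (adjusted p = 1.8e-05). That call was lost when any TalaR-DF library was left out (highest adjusted p = 0.13). For SLC3A2 the difference between the resistant groups was -0.13 ± 0.18 (adjusted p = 0.61).

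SLC38A2, the SNAT2 carrier of small neutral amino acids, fell in both resistant groups. It measured 8.79, 8.78 and 8.77 log2 CPM in parental, 7.95, 6.35 and 7.92 in TalaR-M and 7.78, 7.85 and 7.82 in TalaR-DF cells. Neither resistant group overlapped parental cells, and TalaR-M replicate 2 was the lowest library. TalaR-DF fell by -0.97 ± 0.05 (adjusted p = 1.1e-08). TalaR-M fell by -1.38 ± 0.38 (adjusted p = 0.034), or -0.85 ± 0.06 without replicate 2 (adjusted p = 1.3e-07). The call in TalaR-M was lost when any parental library was left out (highest adjusted p = 0.10).

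SLC1A4, the ASCT1 carrier of alanine, serine and cysteine, was far higher in TalaR-M than in TalaR-DF cells. Levels were 2.41, 1.98 and 2.51 log2 CPM in parental, 3.49, 3.45 and 3.60 in TalaR-M and 0.67, 0.61 and 1.19 in TalaR-DF cells. The 3 groups did not overlap, and TalaR-M replicate 2 lay with the other TalaR-M libraries. TalaR-M was 2.32-fold above parental cells (log2 1.22 ± 0.21, adjusted p = 0.0038) and TalaR-DF 2.78-fold below them (log2 -1.48 ± 0.19, adjusted p = 3.9e-05). The direct difference between TalaR-M and TalaR-DF was 6.46-fold (log2 2.69 ± 0.21, adjusted p = 0.00014). The TalaR-DF levels are low, with 22, 20 and 28 reads, so the size of this fold depends on how low values are treated.

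SLC7A1, a carrier of cationic amino acids, and SLC1A5, the ASCT2 carrier of glutamine, rose slightly in TalaR-DF, by 0.19 ± 0.05 (adjusted p = 0.0042) and 0.24 ± 0.06 (adjusted p = 0.0057). In TalaR-M, neither was called, with replicate 2 at 5.69 log2 CPM against 7.39 and 7.30 for SLC7A1 and at 8.75 against 7.70 and 7.62 for SLC1A5. Without replicate 2, SLC7A1 was called lower, by -0.27 ± 0.06 (adjusted p = 0.0017) where all libraries gave -0.82, and SLC1A5 differed by -0.02 (adjusted p = 0.80). AARS, the alanyl-tRNA synthetase, rose by 0.42 ± 0.11 in TalaR-M (adjusted p = 0.026) and 0.61 ± 0.05 in TalaR-DF (adjusted p = 7.3e-07). The first of these calls was lost when any library other than TalaR-M replicate 2 was left out (highest adjusted p = 0.097). XPOT, which exports tRNA from the nucleus, fell by -0.18 ± 0.05 in TalaR-DF (adjusted p = 0.0082). In TalaR-M, XPOT differed by -1.18 ± 0.40 (adjusted p = 0.066) and was called lower without replicate 2, by -0.63 ± 0.06 (adjusted p = 4.5e-06).

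For the genes that set eIF2 phosphorylation, EIF2AK3 (PERK) differed by 0.01 ± 0.09 in TalaR-DF (adjusted p = 0.96). Its parental and TalaR-DF libraries ranged from 3.89 to 4.01 log2 CPM, whereas the TalaR-M libraries measured 4.28, 1.70 and 4.13. The TalaR-M difference was -0.59 ± 0.60 (adjusted p = 0.48), and 0.24 ± 0.10 without replicate 2 (adjusted p = 0.054). EIF2AK4 (GCN2) rose by 0.26 ± 0.05 in TalaR-DF (adjusted p = 0.00046), with -0.58 ± 0.34 in TalaR-M (adjusted p = 0.25), or -0.12 ± 0.06 without replicate 2 (adjusted p = 0.11). PPP1R15A (GADD34), which directs a phosphatase to eIF2 and is itself an ATF4 target, fell by -0.75 ± 0.06 in TalaR-DF (adjusted p = 8.7e-07) and by -0.47 ± 0.13 in TalaR-M (adjusted p = 0.032). Its call in TalaR-M was lost when any library other than TalaR-M replicate 2 was left out (highest adjusted p = 0.12).

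In the ER arm, the chaperone HSPA5 rose in both resistant groups. It measured 9.51, 9.47 and 9.45 log2 CPM in parental, 10.05, 10.09 and 9.92 in TalaR-M and 9.85, 9.83 and 9.96 in TalaR-DF cells. All libraries of resistant cells lay above all parental ones, and the resistant groups overlapped. The rise was 1.46-fold in TalaR-M (log2 0.54 ± 0.12, adjusted p = 0.015) and 1.32-fold in TalaR-DF (log2 0.41 ± 0.06, adjusted p = 6.3e-05). The TalaR-M call was lost when any parental library was left out (highest adjusted p = 0.072). TalaR-M and TalaR-DF differed by 0.14 ± 0.12 (adjusted p = 0.44).

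HERPUD1, which helps to degrade misfolded ER proteins, measured 5.55, 5.55 and 5.50 log2 CPM in parental, 6.06, 5.57 and 5.89 in TalaR-M and 6.26, 6.09 and 6.16 in TalaR-DF cells. All libraries of resistant cells exceeded the parental ones, by a small margin for TalaR-M replicate 2. The rise was called in TalaR-DF (0.64 ± 0.06, adjusted p = 3.2e-06) and was 0.31 ± 0.15 in TalaR-M (adjusted p = 0.17), or 0.44 ± 0.08 without replicate 2 (adjusted p = 0.00033). DNAJB9, an ER cochaperone induced through XBP1, differed from parental cells by 0.00 ± 0.11 in TalaR-DF (adjusted p = 0.99) and -0.18 ± 0.31 in TalaR-M (adjusted p = 0.69). Its TalaR-M difference was 0.22 ± 0.13 without replicate 2 (adjusted p = 0.15). ERN1, the IRE1 sensor, fell by -0.24 ± 0.09 in TalaR-DF (adjusted p = 0.026), with -0.96 ± 0.31 in TalaR-M (adjusted p = 0.060), or -0.55 ± 0.10 without replicate 2, which was called (adjusted p = 0.00067). Its call in TalaR-DF was lost when any library other than TalaR-DF replicate 2 was left out (highest adjusted p = 0.10).

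**Figure D4:**
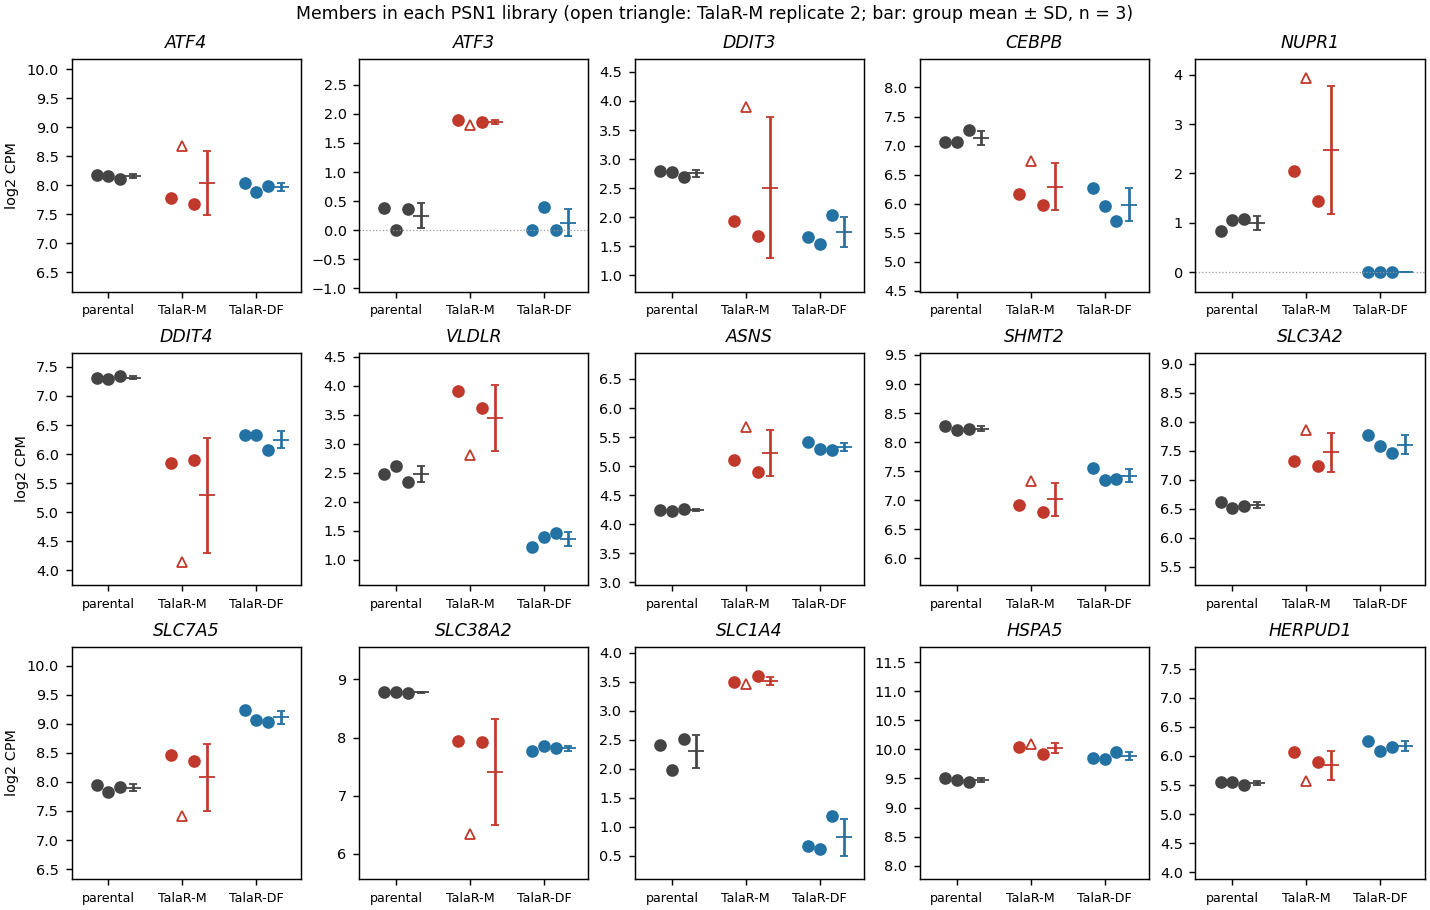
Log2 CPM of 15 members in each library, with circles for single libraries, an open triangle for TalaR-M replicate 2 and a bar for the group mean ± SD (n = 3); axes differ between panels and a dotted line marks the lower limit of 0. The 3 TalaR-M libraries of ATF3 and SLC1A4 lie together above all others, while replicate 2 leaves the other TalaR-M libraries for DDIT3, NUPR1, DDIT4 and SLC38A2.

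A wider list of 113 other genes of the pathway was counted in the same way, and 111 of them were tested. In TalaR-M against parental cells, 10 were higher and 13 lower, where 10.3% and 13.2% of all genes were. Without replicate 2 these counts were 35 and 33, against 30.2% and 30.0% of all genes. These shares lay near those of all genes. In TalaR-DF, 52 were higher and 31 lower, against 34.2% and 32.0% of all genes. Between TalaR-M and TalaR-DF 5 were higher and 4 lower, against 7.79% and 4.25% of all genes, and without replicate 2 17 were higher and 39 lower, against 23.5% and 25.3%. Among the 19 tRNA synthetases, which load amino acids onto tRNA and are ATF4 targets in part, 13 rose and 2 fell in TalaR-DF, where 34.2% of all genes rose and 32.0% fell, with a median of 0.21 log2 units against 0.02 over all genes. In TalaR-M, 1 rose and 1 fell, and 6 and 4 did so without replicate 2. Against the same 34.2% and 32.0% of all genes, 10 of the 15 genes of the eIF2 machinery rose and 2 fell in TalaR-DF, with a median of 0.23. The 21 ER chaperones and folding enzymes had 6 higher and 8 lower in TalaR-DF, shares near those of all genes, and 0 higher and 2 lower in TalaR-M, or 5 and 6 without replicate 2.

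The strongest single changes on that list lay among other ATF4 targets. JDP2, a repressor related to ATF3, was at 0 in all parental libraries and measured 3.15, 3.23 and 3.02 log2 CPM in TalaR-M and 0.73, 0.03 and 0.79 in TalaR-DF cells. TalaR-M lay above all other libraries, by 3.13 over the limit at which parental cells were listed and by 2.61 ± 0.20 over TalaR-DF (adjusted p = 0.00015). NDRG1, a stress and hypoxia gene, measured 9.11, 9.07 and 9.08 in parental, 6.20, 5.90 and 6.0 in TalaR-M and 7.60, 7.40 and 7.46 in TalaR-DF cells. It was lower than parental by -3.06 ± 0.13 in TalaR-M (adjusted p = 1.3e-06) and by -1.60 ± 0.06 in TalaR-DF (adjusted p = 1e-09), and the 3 groups did not overlap.

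VEGFA, the angiogenic factor, also fell, by -1.96 ± 0.34 in TalaR-M (adjusted p = 0.0043), or -1.50 without replicate 2, and -1.32 ± 0.05 in TalaR-DF (adjusted p = 2.1e-09). SLC7A11, the cystine carrier, rose by 1.94 ± 0.10 in TalaR-DF (adjusted p = 2e-08) and by 1.65 ± 0.41 in TalaR-M (adjusted p = 0.021), or 2.19 without replicate 2. DERL3, which acts in ER-associated degradation, rose by 2.14 ± 0.15 in TalaR-DF (adjusted p = 2.1e-07) and 1.56 ± 0.36 in TalaR-M (adjusted p = 0.015), or 1.17 without replicate 2. Its parental libraries measured only 0.59, 0.79 and 0.67 log2 CPM, near the lower limit of 0. The TalaR-M call of SLC7A11 was lost when any library other than TalaR-M replicate 2 was left out (highest adjusted p = 0.080), and that of DERL3 without parental replicate 1 or 3 (highest adjusted p = 0.060). CREB3L2, an ER-bound transcription factor, fell by -1.84 ± 0.46 in TalaR-M (adjusted p = 0.022) and by -1.21 without replicate 2 (adjusted p = 4.5e-08), a call lost when any parental library was left out (highest adjusted p = 0.077). The other genes that led the TalaR-DF list were SDF2L1, an ER chaperone factor that rose by 0.78 ± 0.10 (adjusted p = 3.3e-05), and ALDH1L2, a mitochondrial folate enzyme that fell by -1.39 ± 0.13 (adjusted p = 2e-06), and both calls were lost with all 3 groups in 1 model.

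Between the resistant groups, CREB3L1, a relative of CREB3L2, was higher in TalaR-M than in TalaR-DF by 1.87 ± 0.18 (adjusted p = 0.00047) and ATF5, a relative of ATF4, by 1.05 ± 0.18 (adjusted p = 0.0088). GDF15, a secreted stress cytokine, measured 3.50, 3.39 and 3.54 log2 CPM in parental, 1.32, 2.96 and 1.36 in TalaR-M and 4.19, 4.18 and 3.94 in TalaR-DF cells. Its 3 groups did not overlap, and TalaR-M was lower than TalaR-DF by -2.23 ± 0.40 (adjusted p = 0.0096). NDRG1 was lower as well, by -1.45 ± 0.13 (adjusted p = 0.00024), and ALDH18A1, which makes proline precursors, by -0.99 ± 0.27 (adjusted p = 0.049). The call of ALDH18A1 was lost without TalaR-M replicate 3 or any TalaR-DF library (highest adjusted p = 0.15), and those of ATF5 and GDF15 when only the resistant groups were fitted. Without TalaR-M replicate 2, GDF15 differed by -2.77 (adjusted p = 1.4e-08) and ALDH18A1 by -0.64 (adjusted p = 6.2e-06).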

How the data were processed

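Of the 48 samples in the series, the 9 RNAseq libraries of PSN1 cells in 3 groups were used, and the other 39 samples were not analysed here. Libraries were made by the authors from poly(A) RNA with a stranded kit and read in pairs of 150 bases. The authors deposited log2 values of CPM scaled to an effective library size with a small prior count, and set values under 0 to 0. The unit was inferred from the file itself: every value under 50 CPM corresponded to a whole number of reads (tolerance 0.05). The submitters' processing notes name the build hg38. The aligner, the counting method and the annotation are not given in the sources used here. Such values depend on library composition, and a gene at or under 1 CPM is cut to 0.

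Differences were tested with limma 3.58.1 (R 4.3.3), with a mean-variance trend, two-sided moderated tests and Benjamini-Hochberg adjustment over all genes above 1 CPM in at least 3 fitted libraries. TalaR-M was compared with both other groups in 1 model of 9 libraries (12471 genes), and TalaR-DF with parental cells in their 6 libraries (12165 genes). No pseudocount was added. With 3 libraries against 3, an exact two-sided permutation test of 1 gene cannot give a p under 0.1 and was not used. The script was tested on simulated data. Alternatives were an added 1 or 8 CPM, other filters, rescaling by the median ratio, no trend, a replicate block, other sets of groups, a 2-fold threshold and leaving out each library.

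Values per library were given for members called at 2-fold or more in any comparison and for ATF4, DDIT3, HSPA5 and XBP1. Of the 113 other pathway genes, the 3 called genes that rose most and the 3 that fell most in each comparison were named. HERPUD1 and the members given by single values outside this rule were described after their values were seen. The members and lists were chosen with earlier results of these data known. Positions, transcript lengths and overlaps came from GENCODE 44 on GRCh38. Overlaps and pseudogenes were described above only for some members. Exons of other genes also covered 27.6% of SLC1A5, 17.2% of EIF2AK3, 14.7% of NUPR1 and 12.6% of CEBPB, and smaller parts of some others. PSAT1 has 4 annotated pseudogenes, and some other members have fewer. Promoters came from RefSeq (GRCh38.p14). AARS was matched as AARS1 there.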

Additional observations from a re-analysis of the deposited data

How the results depend on the processing

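Alternative values, 581 in all, were counted for ATF4, ATF3, DDIT3, CEBPB, NUPR1, DDIT4, VLDLR, ASNS, SHMT2, SLC3A2, SLC7A5, SLC38A2, SLC1A4 and HSPA5. The other members tested were not in this count. Of the 581 values, 522 kept their direction and side of the threshold, 40 were no longer called, 9 became called and 10 turned direction. The number of members called in TalaR-M against parental cells (15) was 5 at 2-fold, 10 with a replicate block, 8 when only these groups were fitted (without CEBPB, TRIB3, VLDLR, SLC38A2, AARS, PPP1R15A and HSPA5) and 8 to 26 when 1 library was left out. For TalaR-DF against parental cells (26) it was 8 at 2-fold, 13 with all 3 groups in 1 model, 26 with the replicate block and 25 to 27 when 1 library was left out. In the model of 3 groups the TalaR-DF calls of ATF4, DDIT3, NUPR1, DDIT4, SLC38A2 and HSPA5, among others, were lost. For TalaR-M against TalaR-DF (5) it was 3 above 5 CPM, 3 when only these groups were fitted, 4 with the replicate block, where SLC7A5 lost its call, and 3 to 22 when 1 library was left out. NUPR1 also lost its call there with 8 CPM added. The lowest counts came from leaving out any parental or any TalaR-DF library and the highest, 26 and 22, from leaving out TalaR-M replicate 2. Among these alternatives, the share of all genes is given only for the 2-fold threshold and for leaving out TalaR-M replicate 2. The labels do not say whether replicate numbers pair the samples. Same-numbered deviations from the group means correlated at -0.31 to 0.16, which cannot settle it with 3 libraries in each group. For the other pathway genes, leaving out 1 library gave 6 to 68 calls in TalaR-M against parental cells (23), 71 to 84 in TalaR-DF (83) and 6 to 56 between the resistant groups (9).

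In TalaR-M against parental cells, leaving out 1 library gave -0.43 to 0.0690 for ATF4, -0.95 to 0.16 for DDIT3 and -0.0093 to 0.51 for SLC7A5, with the sign turned without TalaR-M replicate 1, and for ATF4 and DDIT3 also without replicate 3. Between TalaR-M and TalaR-DF it gave -0.25 to 0.25 for ATF4 and -0.68 to 0.12 for SLC38A2, turned without TalaR-M replicate 2, and -0.33 to 0.0598 for ASNS, turned without replicate 3. Median-ratio rescaling turned ASNS (0.0492) and SLC3A2 (0.0206) between the resistant groups. None of these was called from all libraries, and the cause was not tested. Rescaling moved the median of all genes by 0.11 in TalaR-M against parental cells, 0.12 between the resistant groups and -0.04 in TalaR-DF. It took the members called at 2-fold in TalaR-M against parental cells from 5 to 10, while CEBPB, TRIB3 and PPP1R15A lost their calls there. The share of all genes at 2-fold after rescaling is not given here, so this rise cannot be read as particular to the members. The authors set values under about 1 CPM to 0, which limits ATF3, NUPR1 and CHAC1, although 1 CPM stood for 6.97 reads or more. Sizes also moved over the alternatives. Between TalaR-M and TalaR-DF the log2 difference ranged from 0.99 to 2.88 for SLC1A4 and from 0.85 to 2.40 for VLDLR. For ATF3 it ranged from 0.47 to 1.86 and for NUPR1 from 0.85 to 2.99.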
